A study of Mus musculus with 24 samples.

Results

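The genes described here are 6 genes of ketone body metabolism in mouse liver, Acat1, Bdh1, Bdh2, Slc16a1, Slc16a7 and Oxct1, followed across genotype and treatment with a beta3 adrenergic agonist. They were taken by name: every non-control probe on the array annotated to one of these symbols was used, which gave 13 probes among 56605. Of these 13, 12 passed the filter on dim probes, and all 6 genes kept at least 1 probe among the 21331 genes tested. Acat1, Bdh2 and Slc16a1 had 1 probe each, Bdh1 and Oxct1 had 2 each, and Slc16a7 had 6, of which 5 passed.

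Livers came from 24 male C57Bl/6J mice, 6 in each of 4 groups, and each mouse gave 1 single-colour array. LWT mice carried PPARα in hepatocytes and LKO mice lacked it there, as the series title puts it. Both genotypes received either the vehicle, 0.5% carboxymethyl cellulose, or CL316243, a selective agonist of the beta3 adrenergic receptor, in that vehicle at 3 mg/kg (called Beta3 in the labels). All 24 mice were gavaged at Zeitgeber time 10 h after free access to a standard diet, and livers were collected at 16 h. The deleted part of Ppara, the driver of the deletion and the age of the mice are not given in the sources used here. The question the design poses is which hepatic responses to beta3 activation differ when hepatocytes lack PPARα.

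Ketone bodies are made in liver mitochondria from the acetyl-CoA of fatty acid oxidation and are used by other organs. Acat1, mitochondrial acetoacetyl-CoA thiolase, interconverts acetyl-CoA and acetoacetyl-CoA, and Bdh1, on the inner mitochondrial membrane, interconverts acetoacetate and beta-hydroxybutyrate. Bdh2 is a cytosolic dehydrogenase of the short-chain family, described both as a second beta-hydroxybutyrate dehydrogenase and as an enzyme of siderophore synthesis. The carriers MCT1 (Slc16a1) and MCT2 (Slc16a7) move lactate, pyruvate and ketone bodies across the plasma membrane with a proton. Oxct1 encodes the transferase that lets tissues outside the liver burn acetoacetate, and hepatocytes are known for very low amounts of it. PPARα is a fatty acid-activated nuclear receptor known as the main transcriptional regulator of hepatic fatty acid oxidation and ketogenesis in fasting.

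Upstream sequence was on hand in the RefSeq promoter table (build GRCm38.p6) for 4 of the 6 genes, with 5 entries, Bdh1 having 2. The 250 bases that precede the annotated start are printed for Slc16a1, the gene with the largest rise under CL316243, and for Bdh2, which fell by nearly the same amount in both genotypes. The Slc16a1 stretch is chr3:104638414-104638663 and the Bdh2 stretch chr3:135280971-135281220, both on the plus strand and both read 5′ to 3′ towards the start. Capitals mark CACGTG, the E-box core.
Slc16a1: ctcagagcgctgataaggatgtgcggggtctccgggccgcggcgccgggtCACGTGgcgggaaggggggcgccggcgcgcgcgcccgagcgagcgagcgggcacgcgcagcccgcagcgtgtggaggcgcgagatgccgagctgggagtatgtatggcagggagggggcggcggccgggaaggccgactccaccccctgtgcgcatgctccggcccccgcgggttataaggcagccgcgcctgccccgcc
Bdh2: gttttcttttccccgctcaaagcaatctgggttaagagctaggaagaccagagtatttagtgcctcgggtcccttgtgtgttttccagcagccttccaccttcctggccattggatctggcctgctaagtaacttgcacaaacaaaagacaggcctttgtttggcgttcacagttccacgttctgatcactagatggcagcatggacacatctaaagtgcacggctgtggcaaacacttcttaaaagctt
The Slc16a1 stretch had a GC content of 76.4% and the Bdh2 stretch 48.0%. Both strands were searched for the DR1 element that PPARα with RXR binds (AGGTCA, any base, AGGTCA), the half-site AGGTCA, TGACGTCA (the full cAMP response element), its shorter form TGACG, and CACGTG. The shorter motifs lie inside the longer ones, and CACGTG reads alike on both strands. In the 5 entries, 1 match was found, CACGTG in Slc16a1, starting 200 bases before the start. Among all 32851 promoters of the table, 6.02% held CACGTG, 14% AGGTCA, 17.8% TGACG, 1.55% TGACGTCA and 0.0335% the DR1 element. These counts describe the letters in 250 bases, and nothing follows from them about binding.

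Levels are log2 processed intensities minus the array's own 75th percentile, so 0 is the level at that percentile, and levels of different probes are not comparable with each other. Between 26985 and 34202 of the 56605 probes were well above background per array. All 6 hepatocyte markers were well above background on all 24 arrays. Ppara, the gene altered in LKO mice, was lower in LKO than in LWT mice. The log2 difference was -1.91 under CL316243 (adjusted p = 3.6e-07) and -0.68 under vehicle (adjusted p = 0.158, not called). The genotypes did not overlap in either treatment, as for 6.57% of all genes under CL316243 and 1.8% under vehicle. CL316243 itself raised Ppara in LWT livers (0.55, adjusted p = 0.038) and lowered it in LKO livers (-0.69, adjusted p = 0.010). The difference between these 2 effects was called (-1.235, adjusted p = 0.012). A second, dimmer Ppara probe was called between genotypes in both treatments, at -2.09 under CL316243 (adjusted p = 5.8e-08) and -0.92 under vehicle (adjusted p = 0.019, over all kept probes). Its changes under CL316243, 0.63 in LWT and -0.54 in LKO livers, were also called. By the brighter probe Ppara was still measured in every LKO mouse, between 3.06 and 5.18, and the labels do not say whether either probe lies in the deleted part.

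Some markers of other cells also differed between CL316243 and vehicle livers. The summed linear signal of 6 neutrophil markers ran from 2.97 to 6.23 times the 75th percentile in LWT vehicle mice, 3.14 to 13.6 in LWT CL316243 mice, 3.03 to 4.29 in LKO vehicle mice and 4.59 to 44.7 in LKO CL316243 mice. Single members did not all go one way: in LWT livers S100a8 and S100a9 rose (1.48 and 1.44) while Ly6g and Camp fell (-0.38 and -0.41), and in LKO livers S100a8, S100a9 and Elane rose (2.30, 2.24 and 0.34) and none fell. The sum for 5 cholangiocyte markers had medians of 0.935, 2.11, 0.842 and 3.37 in the same order, and 1 of the 5, Sox9, was called, higher in both genotypes (1.47 in LWT and 2.18 in LKO livers), whereas Krt7, Krt19, Epcam and Cftr were not. None of the 8 macrophage markers was called in either genotype. LKO CL316243 replicate 3 stood apart, with the highest sum in both of the former lists, the lowest Ppara level and the lowest mean correlation with its own group, 0.972 against at least 0.983 for the other 5. LWT CL316243 replicate 3 had the lowest Ppara level of its group, 5.70. Where leaving out either mouse ended a call on a named gene or moved a ketone gene's value by over 0.1, the value without it is given.

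CL316243 raised 2 of the 6 ketone genes and lowered 2 in LWT livers, and raised 1 and lowered 4 in LKO livers. In LWT mice Slc16a1 and Acat1 rose and Bdh2 and Oxct1 fell, against 18.9% of all tested genes called higher and 19.4% called lower (38.3% in either direction). In LKO mice Slc16a1 rose and Acat1, Bdh1, Bdh2 and Oxct1 fell, where 20.9% of genes were called higher and 19.4% lower (40.3% in either direction). Higher genes made up 51.9% of all calls in LKO livers, and 41.2% when arrays were centred on their median instead. The median log2 change of the 6 genes was 0.009 in LWT and -0.45 in LKO livers, beside 0.0092 and 0.027 over all genes tested. The effect itself differed between genotypes for Acat1 and Slc16a1, 2 of 6 genes, where 5.41% of all genes had a called interaction (40.1% of these higher, or 27% with centring on the median). The drug moved a large share of all genes, and the counts of 4 and 5 of 6 are to be read against that background. Because the RNA comes from whole liver, fewer cells of a type and less RNA per cell cannot be told apart.

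**Figure D1:**
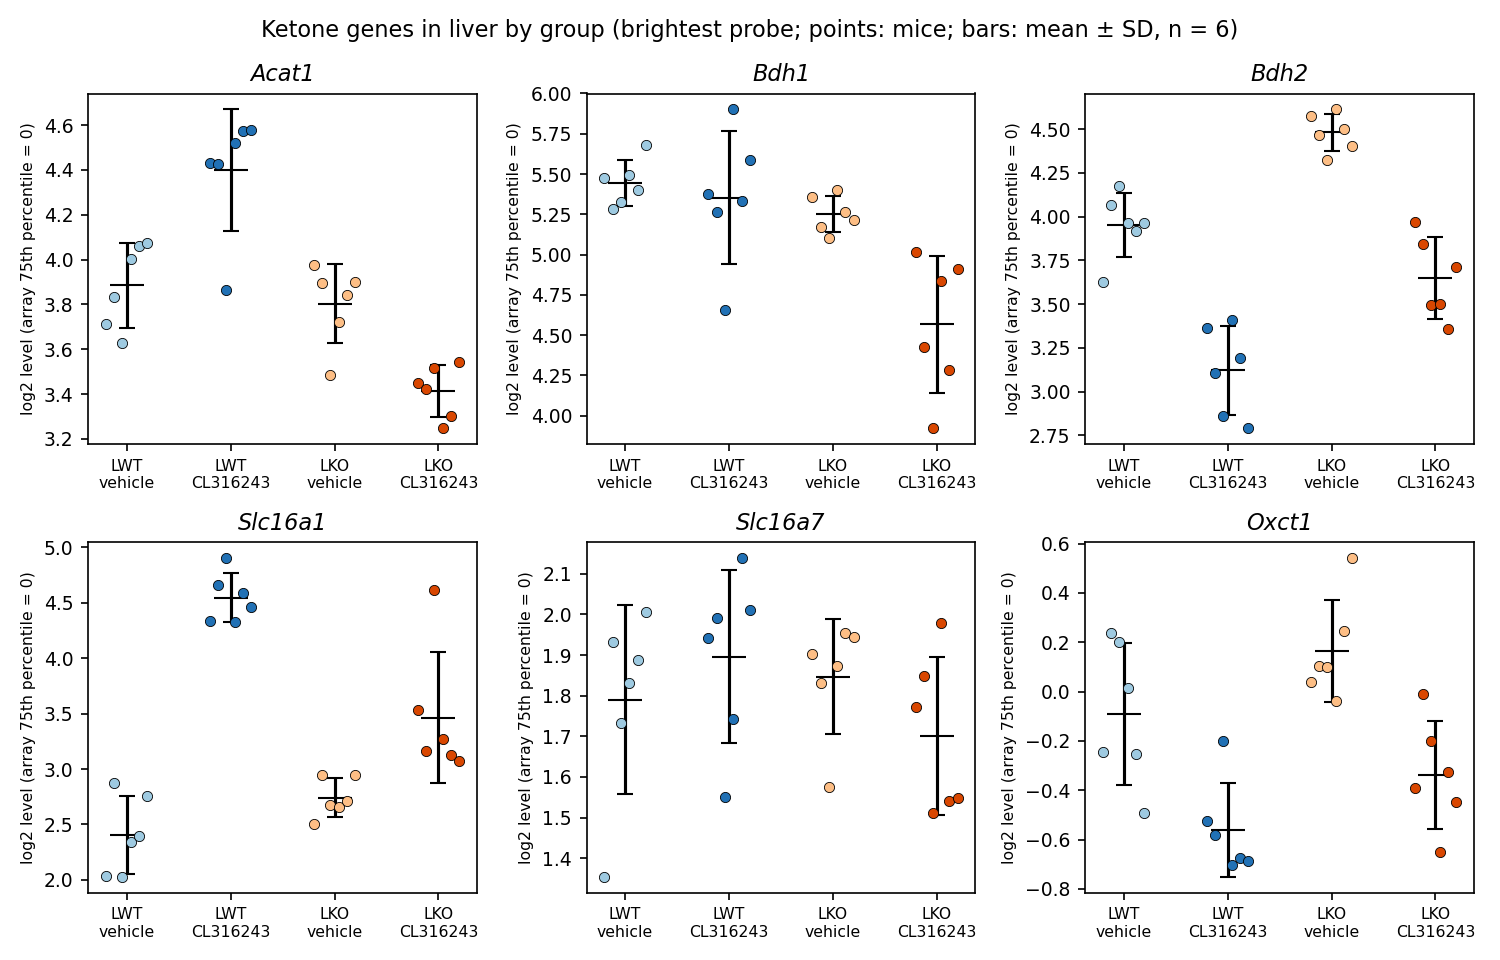
Log2 level (array 75th percentile = 0) of the brightest probe of each ketone gene in each mouse, left to right within a group by replicate number; bars are mean ± SD of 6 mice. Acat1 sits highest in LWT CL316243 mice, at 3.86 to 4.58, and lowest in LKO CL316243 mice, at 3.25 to 3.54, whereas Bdh2 changes by -0.83 in both genotypes.

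Acat1, the thiolase, moved in opposite directions in the 2 genotypes. In LWT mice its level ran from 3.63 (median 3.92) to 4.07 under vehicle and from 3.86 (median 4.48) to 4.58 under CL316243. In LKO mice it ran from 3.48 (median 3.87) to 3.98 under vehicle and from 3.25 (median 3.44) to 3.54 under CL316243. Of the LWT CL316243 mice, 5 lay above every vehicle mouse and replicate 3 lay among them, and in LKO mice the treated group sat below with a slight overlap. The change was 0.51 ± 0.11 (SE) in LWT livers, a 1.43-fold rise (adjusted p = 9.8e-04), and -0.39 ± 0.11 in LKO livers, a 1.31-fold fall (adjusted p = 0.0086). The difference between the 2 effects was -0.90 ± 0.16 (adjusted p = 0.0010; -1.01 without LWT CL316243 replicate 3), and it was between -0.98 and -0.81 within each of the 3 slides.

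Without LWT CL316243 replicate 3 the Acat1 rise was 0.62 (adjusted p = 2.8e-05), and over all single omissions it ran from 0.46 to 0.62, with adjusted p-values up to 0.0034. Under vehicle the genotypes did not differ detectably in Acat1, at -0.08, with a 95% interval of -0.32 to 0.15 for LKO minus LWT. Under CL316243 LKO livers were 1.98-fold lower, a log2 difference of -0.98, with no overlap, as for 6.57% of all genes (adjusted p = 1.0e-06). Without LWT CL316243 replicate 3 this difference was -1.09.

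Bdh1, which reduces acetoacetate to beta-hydroxybutyrate, fell in LKO livers. In LWT mice its level ran from 5.29 (median 5.44) to 5.68 under vehicle and from 4.66 (median 5.36) to 5.90 under CL316243. LKO mice ranged from 5.11 (median 5.24) to 5.40 under vehicle and from 3.92 (median 4.63) to 5.02 under CL316243. All 6 treated LKO mice lay below all 6 LKO vehicle mice, whereas in LWT mice the treated group spanned the vehicle group on both sides, with replicate 3 lowest and replicate 4 highest. The share of all genes with no such overlap in LKO livers was 20.8%.

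The Bdh1 change was -0.69 ± 0.17 in LKO livers, a 1.61-fold fall (adjusted p = 0.0031), and -0.09 in LWT livers with an interval of -0.45 to 0.27. Without LKO CL316243 replicate 3, the lowest mouse, the LKO change was -0.56 (adjusted p = 0.0093), and without LWT CL316243 replicate 3 the LWT change was 0.05. The difference between these effects was -0.60 ± 0.25 and was not called (adjusted p = 0.18), and within slides it ran from -1.23 to 0.11. It was called without LWT CL316243 replicate 3, at -0.74 (adjusted p = 0.047, and 0.051 to 0.35 over the alternatives on all arrays), and was -0.47 without LKO CL316243 replicate 3 (adjusted p = 0.24). The second Bdh1 probe gave -0.67 in LKO livers (adjusted p = 0.0045) and -0.05 in LWT livers. Under CL316243 LKO livers were lower than LWT livers, at -0.79 ± 0.17 (adjusted p = 0.0025). Within slides, with 2 mice of each group, this difference ran from -1.57 to 0.00, so 1 slide showed no mean difference. The slide at 0.00 held LWT CL316243 replicate 3 (4.66), and the slide at -1.57 held LKO CL316243 replicate 3 (3.92). Over all slides the difference was -0.66 without LKO CL316243 replicate 3 and -0.93 without LWT CL316243 replicate 3, called in both.

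Bdh2, the cytosolic dehydrogenase, fell by nearly the same mean amount in both genotypes. In LWT mice its level ran from 3.63 (median 3.96) to 4.17 under vehicle and from 2.79 (median 3.15) to 3.41 under CL316243. In LKO mice the values ran from 4.33 (median 4.49) to 4.61 under vehicle and from 3.36 (median 3.61) to 3.97 under CL316243. Neither genotype had an overlap between treated and vehicle mice, which was so for 20.4% of all genes in LWT and 20.8% in LKO livers. The fall was 1.78-fold in each, -0.83 ± 0.12 in LWT livers (adjusted p = 8.6e-06) and -0.83 ± 0.12 in LKO livers (adjusted p = 1.0e-05). The difference between the effects was -0.002, with an interval of -0.34 to 0.34, and within slides it ran from -0.46 to 0.27.

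Bdh2 was also the ketone gene that was called between genotypes under vehicle, where 1.18% of all genes were called (0.398% higher in LKO). LKO vehicle livers were higher than LWT vehicle livers by 0.53 ± 0.12, or 1.44-fold, with no overlap between the 6 and 6 mice, a separation that 1.8% of all genes showed (adjusted p = 0.020). Within slides this difference was 0.30 to 0.67. The call was lost without LWT vehicle replicate 1 (0.47, adjusted p = 0.063), without LKO vehicle replicate 4 (0.50, adjusted p = 0.056) and with no filter on dim probes (adjusted p = 0.053, where the alternatives on all arrays ran from 0.0024 to 0.053). Under CL316243 LKO livers remained higher by 0.53 ± 0.12 (adjusted p = 0.0026), in all 3 slides, by 0.15 to 0.86.

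**Figure D2:**
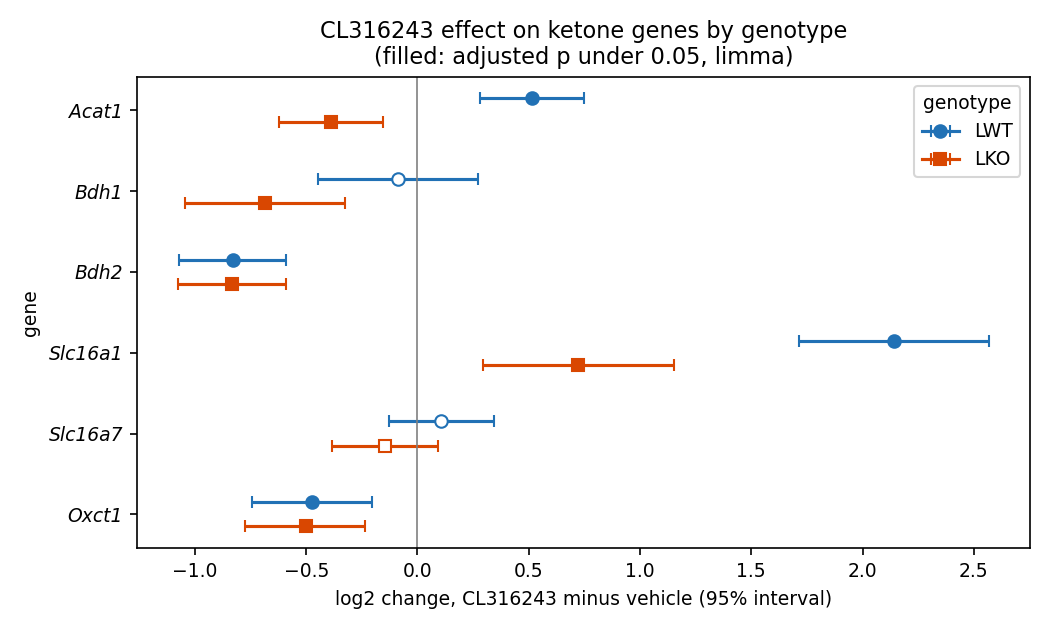
Log2 change under CL316243 for each ketone gene in LWT (circles) and LKO (squares) livers, with the 95% interval from the model; filled symbols have an adjusted p under 0.05. Slc16a1 rises by 2.14 in LWT and 0.72 in LKO livers, Acat1 lies on opposite sides of 0, and Bdh2 and Oxct1 lie at nearly the same place in both genotypes.

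Slc16a1, the carrier MCT1, showed the largest change of the 6 genes. In LWT mice its level ran from 2.03 (median 2.37) to 2.87 under vehicle and from 4.32 (median 4.52) to 4.91 under CL316243. LKO mice ran from 2.50 (median 2.69) to 2.95 under vehicle and from 3.07 (median 3.22) to 4.62 under CL316243. In both genotypes every treated mouse was above every vehicle mouse, where 20.4% of all genes in LWT and 20.8% in LKO livers had no overlap. The treated LKO mice lay between the vehicle level and the treated LWT level except for replicate 3, which reached the LWT range. The next highest LKO CL316243 mouse was at 3.53.

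The rise in Slc16a1 was 2.14 ± 0.21 in LWT livers, or 4.41-fold (adjusted p = 5.6e-08), and 0.72 ± 0.21 in LKO livers, or 1.65-fold (adjusted p = 0.0076). The effect was smaller in LKO livers, with a difference of -1.42 ± 0.29 (adjusted p = 0.0044), and it was smaller in all 3 slides, at -1.75 to -0.92. Without LKO CL316243 replicate 3 the LKO rise was 0.49 (adjusted p = 0.011) and the difference between genotypes -1.65 (adjusted p = 1.4e-05). That mouse also had the highest neutrophil marker sum of all 24, 44.7, and the part of other cells in its Slc16a1 level was not tested.

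Genotype alone gave no called difference in Slc16a1, at 0.33 ± 0.21 for LKO minus LWT under vehicle (adjusted p = 0.78). Under CL316243 LKO livers were 2.12-fold lower, at -1.08 ± 0.21 (adjusted p = 6.4e-04), with 5 of 6 mice below the LWT mean. Without LKO CL316243 replicate 3, the mouse above that mean, the difference was -1.31 (adjusted p = 7.8e-07). Over all genes, 15.9% were called between genotypes under CL316243, 7.74% higher and 8.17% lower in LKO, and of the 6 ketone genes Bdh2 was called higher and Acat1, Bdh1 and Slc16a1 lower.

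Slc16a7, the carrier MCT2, depended on which probe was read. The brightest probe, at chr10:124664842-124664901 on the minus strand (build mm9, as all probe positions here), ran from 1.35 (median 1.86) to 2.005 in LWT vehicle and from 1.55 (median 1.97) to 2.14 in LWT CL316243 mice. Among LKO mice it ran from 1.58 (median 1.89) to 1.96 under vehicle and from 1.51 (median 1.66) to 1.98 under CL316243. All 4 groups overlapped. None of the 5 comparisons was called for it, with changes of 0.11 (interval -0.13 to 0.34) in LWT and -0.15 (interval -0.38 to 0.09) in LKO livers. A neighbouring probe, further along the same transcript, gave 0.10 and -0.09.

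A probe far downstream in Slc16a7, starting at base 10416 of a longer transcript model (chr10:124656357-124656416), read differently. Its level ran from 0.27 (median 0.32) to 0.84 in LWT vehicle and from 0.81 (median 1.19) to 1.38 in LWT CL316243 mice. For LKO mice it ran from 0.19 (median 0.45) to 0.70 under vehicle and from 0.48 (median 0.75) to 1.19 under CL316243. The LWT groups met through 1 vehicle mouse, replicate 6, and the LKO groups overlapped widely.

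In the fit over all kept probes, this probe rose by 0.76 ± 0.13 in LWT livers, or 1.69-fold (adjusted p = 9.8e-05, with 37.6% of all probes called). The LKO change, 0.33 ± 0.13, lay at the threshold (adjusted p = 0.0502), and the difference between genotypes, -0.43 ± 0.19, was not called (adjusted p = 0.20). The remaining kept probes were dim: the probe at base 397 changed by 0.32 and 0.29, and that at base 3671, well above background on 2 to 4 of 6 mice per group, by -0.05 and 0.09, none of them called. The probe that missed the filter, at chr10:124814547-124814606, was well above background on at most 1 mouse per group. Which transcripts each probe reads was not settled here.

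**Figure D3:**
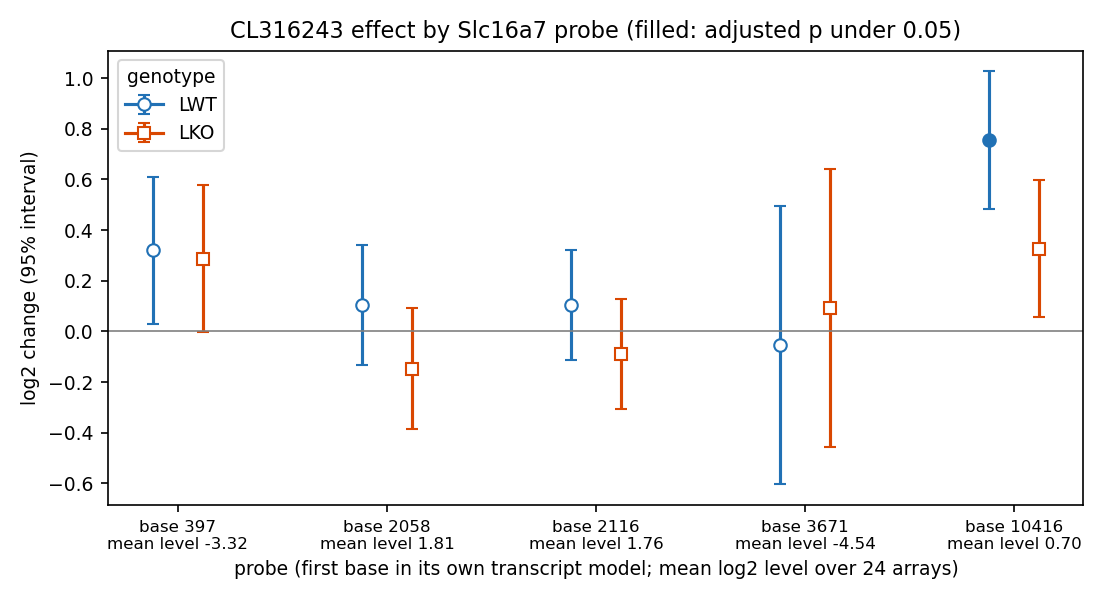
Log2 change under CL316243 of the 5 kept Slc16a7 probes in LWT (circles) and LKO (squares) livers, with the 95% interval, ordered by the probe's first base in its own transcript model; filled symbols have an adjusted p under 0.05 over all kept probes. The probe at base 10416 rises by 0.76 in LWT livers, and the intervals of the probes at bases 2058 and 2116 include 0 in both genotypes.

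Oxct1, the transferase for ketone use, fell in both genotypes. In LWT mice its level ran from -0.49 (median -0.12) to 0.24 under vehicle and from -0.70 (median -0.63) to -0.20 under CL316243. The LKO values ran from -0.04 (median 0.10) to 0.54 under vehicle and from -0.65 (median -0.36) to -0.01 under CL316243. Treated mice lay lower in both genotypes with some overlap, and every treated mouse was below the mean of its vehicle group. The change was -0.47 ± 0.13, a 1.39-fold fall, in LWT livers (adjusted p = 0.0061) and -0.50 ± 0.13, a 1.42-fold fall, in LKO livers (adjusted p = 0.0037).

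The difference between these Oxct1 effects was -0.03, with an interval of -0.41 to 0.35. The second Oxct1 probe fell by 0.49 in LWT and by 0.40 in LKO livers (adjusted p = 0.0030 and 0.011). Genotype differences in Oxct1 were not called, at 0.25 under vehicle and 0.22 under CL316243. The summed signal of 6 lymphocyte markers was 7.88 to 9.14 in LWT vehicle, 6.70 to 8.35 in LWT CL316243, 7.65 to 9.31 in LKO vehicle and 6.68 to 7.97 in LKO CL316243 mice. Of these 6, Cd79a was well above background on 0 of 24 arrays. The sum was carried mostly by Ptprc and Cd3e, at mean log2 levels of 2.4 and 0.94, the others being at -2.07 or below. Of the 5 markers tested, 0 were called higher and 1 lower in LWT livers, and 1 higher and 2 lower in LKO livers. Over all genes, 19.4% were called lower in each genotype. The part of other cells in the Oxct1 signal was not tested.

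The order of the 4 groups differed from gene to gene. For Acat1 it was LWT CL316243, LWT vehicle, LKO vehicle and LKO CL316243, with every neighbouring pair overlapping and the middle pair 0.08 apart. For Bdh1 the upper 3 groups overlapped, and LKO CL316243 did not overlap its neighbour, LKO vehicle. For Bdh2 the order was LKO vehicle, LWT vehicle, LKO CL316243 and LWT CL316243, and for Slc16a1 it was LWT CL316243, LKO CL316243, LKO vehicle and LWT vehicle. All neighbouring groups overlapped for Slc16a7 and for Oxct1, whose order was the same as for Bdh2.

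Other genes of the pathway were taken from a list of 16, of which 15 were on the array and 11 passed the filter. Under CL316243, 6 of the 11 rose and 2 fell in LWT livers, and 2 rose and 4 fell in LKO livers, with median changes of 0.35 and -0.15. Over all genes, 18.9% rose and 19.4% fell in LWT livers and 20.9% rose and 19.4% fell in LKO livers. The interaction was called for 4 of the 11, all towards a lower response in LKO, beside 5.41% of all genes. LKO livers were lower for 4 under vehicle and 5 under CL316243, with none higher, beside 0.778% and 8.17% of all genes lower. Hadha and Hadhb encode the subunits of the mitochondrial trifunctional protein, which carries out the later steps of long-chain beta-oxidation.

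Hadhb ran from 4.93 to 5.27 in LWT vehicle mice, from 5.65 to 6.06 in LWT CL316243 mice, from 4.48 to 4.73 in LKO vehicle mice and from 4.36 to 4.56 in LKO CL316243 mice. Only the 2 LKO groups met. Over all genes, 20.4% had no overlap between treatments in LWT livers. Between genotypes, 1.8% had none under vehicle and 6.57% under CL316243. Hadhb rose by 0.89 ± 0.07 in LWT livers and changed by -0.15 in LKO livers, which was not called (adjusted p = 0.093). The LKO change minus the LWT change was -1.04 ± 0.10 (adjusted p = 6.0e-07). Hadha rose by 0.93 in LWT livers (adjusted p = 2.8e-09), and the difference between genotypes was -0.85. For both, LKO livers were lower already under vehicle, at -0.44 for Hadhb (adjusted p = 8.6e-04) and -0.41 for Hadha (adjusted p = 0.0031). The other 2 Hadhb probes were not called under vehicle (-0.42 and -0.29, adjusted p = 0.36 and 0.098). They rose in LWT livers by 1.88 and 1.003, and their differences between genotypes in that response, -1.53 and -1.44, were called. In LKO livers the first changed by 0.35, not called (adjusted p = 0.088), and the second fell, at -0.43 (adjusted p = 2.1e-04).

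Acaa2, a mitochondrial thiolase of beta-oxidation, rose by 0.35 in LWT livers (adjusted p = 1.1e-04), but by 0.20 in the authors' series table and by 0.15 after quantile normalization, where the call was lost (adjusted p = 0.079). The difference between genotypes was -0.40 (adjusted p = 0.0067). Its vehicle difference of -0.26 (adjusted p = 0.027) was lost under several other settings, among them quantile normalization (adjusted p = 0.057) and centring on the array's median (adjusted p = 0.25). Under CL316243 the difference of LKO from LWT livers was -1.48 for Hadhb, -1.26 for Hadha and -0.66 for Acaa2.

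Hcar2, the receptor for beta-hydroxybutyrate and niacin on adipocytes and myeloid cells, had the largest change in the pathway list. Its level ran from -6.41 to -2.71 in LWT vehicle, -2.43 to 1.25 in LWT CL316243, -5.12 to -2.84 in LKO vehicle and -1.91 to 2.75 in LKO CL316243 mice. Treated and vehicle mice did not overlap in either genotype, as for 20.4% of all genes in LWT and 20.8% in LKO livers. Of the vehicle mice, 5 of 6 in each genotype were well above background. Hcar2 rose by 3.51 ± 0.73 in LWT livers (adjusted p = 5.6e-04) and by 4.25 ± 0.73 in LKO livers (adjusted p = 8.8e-05), and by 3.73 in LKO livers without replicate 3. With normexp background correction the rises were smaller, at 1.998 and 2.68, and still called. S100a8 and S100a9 rose in the same groups, Ly6g and Camp did not, and the part of neutrophils in the Hcar2 signal was not tested.

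Aacs, cytosolic acetoacetyl-CoA synthetase, which turns acetoacetate towards lipid synthesis, fell by 1.12 in LWT livers (adjusted p = 0.011) and by 0.86 in LKO livers (adjusted p = 0.048). The LKO call was lost when most single mice were left out, for example LKO CL316243 replicate 3 (-0.66, adjusted p = 0.13). Hmgcs1, the cytosolic HMG-CoA synthase of sterol synthesis, rose by 0.997 in LKO livers (adjusted p = 0.011) and was not called in LWT livers, at 0.13. Sirt5, a mitochondrial desuccinylase, fell by 0.78 in LKO livers (adjusted p = 4.9e-04) and was not called in LWT livers, at -0.37. The difference between genotypes was not called for Aacs, Hmgcs1 or Sirt5.

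A second list held 16 genes of monocarboxylate transport besides Slc16a1 and Slc16a7: the other Slc16 carriers, 2 sodium-coupled carriers and the chaperones Bsg and Emb. All 16 were on the array and 11 passed the filter. Of these, 5 rose and 1 fell in LWT livers, and 3 rose and 1 fell in LKO livers. Over all genes, 18.9% rose and 19.4% fell in LWT livers (38.3% called), and 20.9% rose and 19.4% fell in LKO livers (40.3% called). The 4 called of 11 in LKO livers lie near that share, and the 6 of 11 in LWT livers lie above theirs. These counts of 11 genes were not tested against the shares. The interaction was called for 1 (5.41% of all genes). LKO livers were lower for 2 under vehicle (0.778% of all genes), and lower for 3 and higher for 1 under CL316243 (8.17% and 7.74%). Bsg, the partner that brings MCT1 to the membrane, was not called, at 0.13 in LWT and -0.13 in LKO livers.

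Slc16a5 (MCT6) showed, like Slc16a1, a large rise in LWT livers. It ran from -1.27 to 0.01 in LWT vehicle, 1.45 to 2.33 in LWT CL316243, -2.27 to 0.24 in LKO vehicle and -0.94 to 0.77 in LKO CL316243 mice. The LWT groups were apart, as for 20.4% of all genes, and the LKO groups overlapped. The rise was 2.71 ± 0.37 in LWT livers (adjusted p = 6.7e-06) and 0.92 in LKO livers, which was not called (adjusted p = 0.052). The difference of -1.78 ± 0.53 was barely called (adjusted p = 0.0490), and it was lost with slide as a block (adjusted p = 0.057) and when most single mice were left out. The 2 other Slc16a5 probes rose in both genotypes, by 3.13 and 1.27 in LWT livers and by 1.16 and 0.72 in LKO livers (adjusted p = 0.037 and 0.019), and neither had a called interaction (adjusted p = 0.060 and 0.41).

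Slc16a13 (MCT13) was lower in LKO livers, at -1.79 ± 0.36 under vehicle (adjusted p = 0.0094) and -3.39 ± 0.36 under CL316243 (adjusted p = 3.6e-07). It was dim in LKO mice, well above background on 3 of 6 in each treatment. It rose by 1.41 in LWT livers, the difference between genotypes in that response was not called (-1.60, adjusted p = 0.073), and the size of the genotype difference depended on the background correction. With normexp it was -0.71 under vehicle, no longer called (adjusted p = 0.086), and -1.64 under CL316243, still called. In the authors' series table it was -0.94 and -2.02. Slc16a11 (MCT11) was lower in LKO livers, at -1.46 under vehicle (adjusted p = 0.0011) and -1.40 under CL316243 (adjusted p = 2.2e-04), and was not called for CL316243 in either genotype.

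Slc16a6 (MCT7), known as an exporter of beta-hydroxybutyrate from hepatocytes, rose by 1.57 ± 0.24 in LWT livers (adjusted p = 2.4e-05) and by 2.01 ± 0.24 in LKO livers (adjusted p = 1.8e-06). Its level ran from 1.40 to 1.90 in LWT vehicle, 2.63 to 3.84 in LWT CL316243, 1.29 to 1.92 in LKO vehicle and 3.00 to 4.79 in LKO CL316243 mice. Treated mice of both genotypes were above every vehicle mouse, where 20.4% of all genes in LWT and 20.8% in LKO livers had no overlap. The difference between genotypes, 0.43 ± 0.34, was not called (adjusted p = 0.56), whereas that of Slc16a1 was.

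Slc16a10, an aromatic amino acid carrier, rose by 0.91 in LWT livers (adjusted p = 0.016) and by 1.25 in LKO livers (adjusted p = 0.0015), and the difference between genotypes was not called (adjusted p = 0.73). Of its 2 other probes, both rose in LKO livers and 1 in LWT livers. Slc16a9 rose by about the same amount in both, 0.56 in LWT livers (adjusted p = 0.023) and 0.54 in LKO livers (adjusted p = 0.028), with a difference of -0.03. Its LKO call was lost when any of 4 single mice was left out, and its LWT call without LWT CL316243 replicate 3 (0.46, adjusted p = 0.067), among others. Slc16a12, a creatine carrier, fell by 1.32 in LWT livers (adjusted p = 3.4e-05) and by 0.75 in LKO livers (adjusted p = 0.0065), and was higher in LKO livers by 0.62 under CL316243 (adjusted p = 0.046), a call that most single omissions ended (0.47, adjusted p = 0.12, without LWT CL316243 replicate 3).

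**Figure D4:**
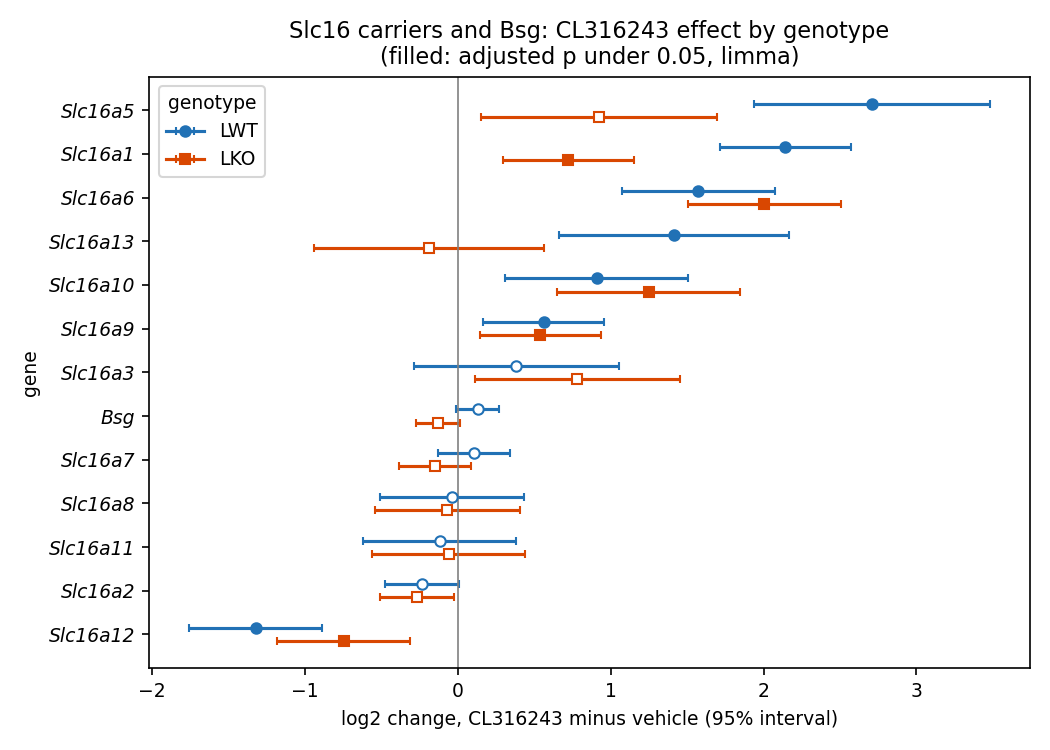
Log2 change under CL316243 of the Slc16 carriers and Bsg that passed the filter, in LWT (circles) and LKO (squares) livers, with the 95% interval; genes are ordered by the LWT change and filled symbols have an adjusted p under 0.05. Slc16a5 and Slc16a1 rise most in LWT livers, by 2.71 and 2.14, and Slc16a6 rises in both genotypes.

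The genes whose levels tracked each ketone gene most closely were found by Pearson correlation over all 24 arrays, which share the same 4 groups, so these values describe a shared pattern over groups. For Slc16a1 they were Hilpda (r = 0.953), Gfod2 (0.947) and Zfp341 (0.941). Hilpda, a lipid droplet protein that inhibits triglyceride lipase, had log2 differences under CL316243 of 4.06 in LWT and 1.53 in LKO livers. For Acat1 they were Pex19 and Timm9 (0.937 each) and Got2 (0.929), and for Bdh1 Tmem206 (0.949), Hadh (0.944) and Paqr7 (0.938).

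For Bdh2 the closest genes were Tcea3 (0.949), Gcat (0.941) and Clcc1 (0.935). Tcea3 had log2 differences of -0.90 in LWT and -0.83 in LKO livers, beside -0.83 in both for Bdh2. Oxct1 had weaker neighbours, Tpst2 (0.834), E2f1 (0.828) and Gnat2 (0.818), and Slc16a7 the weakest, Mpc2 (0.668), Sft2d3 (0.651) and Hexim1 (0.643). Hadh, the short-chain hydroxyacyl-CoA dehydrogenase of mitochondria, had log2 differences of 0.12 in LWT and -0.57 in LKO livers, beside -0.09 and -0.69 for Bdh1.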

How the data were processed

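RNA of 24 livers was labelled with Cy3 (200 ng each, per the labels) and read on 1-colour arrays, 8 to a slide on 3 slides, each slide with 2 mice of every group. The deposited scanner tables hold background-subtracted intensity values per spot written by the Agilent software Feature Extraction, version 10.10.1.1, per the submitters' processing notes. A second deposited table, of the whole series, holds log2 values, which the authors had quantile normalized; it served as an alternative. Every column of it belonged to a sample (0 without one).

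Here, 59305 non-control spots per array were converted to log2 after outlier spots were left out, each array's 75th percentile was subtracted, and spots of a probe were averaged. Probes that passed the scanner's background test on 4 or more of the 6 arrays of any group, with 3 or more values per group, were kept (32037), and the brightest stood for its gene (21331). limma 3.58.1 in R 4.3.3 (files read with data.table, version 1.17.8) fitted 1 mean per group with a shared spread (prior df 2.17, residual df 20). P-values were adjusted by Benjamini-Hochberg within each of 5 comparisons and called under 0.05; ± in the text is a standard error unless stated. The number of arrays limits precision. The fit was also run on simulated data with independent noise per gene and array. These had no slide or replicate structure and far fewer changed genes than were called here. That run therefore cannot show how the fit behaves with such structure. Positions are those of the array annotation.

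Ketone genes, gene lists and tests were chosen with earlier results of these data known. The text names all ketone genes, up to 4 called genes of largest change per list and comparison, and the 3 most correlated named genes. Some genes that this rule picks are not reported here. Alternatives covered normalization, background, filter, probe choice, moderation, slide, replicate number, array weights, a fold minimum and single omissions.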

Additional observations from a re-analysis of the deposited data

Results flagged for a closer look

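The response to CL316243 differed between genotypes, by the interaction test, for Acat1 (-0.90, LKO minus LWT) and Slc16a1 (-1.42), both described above.

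Single mice lay far from the rest of their group, by Dixon's criterion for 6 samples (a gap over range above 0.625), in 6 of 48 combinations of probe and group, where chance gives about 1 in 20. In LWT CL316243 mice, replicate 3 was low for Acat1 at 3.86, the next mouse being at 4.43, and high for Oxct1 at -0.20, the next being at -0.52. In LKO CL316243 mice, replicate 3 was high for Slc16a1 at 4.62, the next being at 3.53. In LKO vehicle mice, replicate 3 was low for the 2 neighbouring Slc16a7 probes, at 1.58 and 1.54. In LWT vehicle mice, replicate 6 was high for the Slc16a7 probe at base 10416, at 0.84, the next being at 0.35. The 2 neighbouring Slc16a7 probes are not independent of each other.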

How the results depend on the processing

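Results for the ketone genes were recomputed under 14 alternatives on all arrays (13 for the interaction) and with each of the 24 arrays left out. Of the values for called results, 215 of 222 under the alternatives and 382 of 384 with an array left out kept their direction and call, and the rest lost the call. For uncalled results, 185 of 192 and 316 of 336 did, with 7 and 19 reversed and 1 newly called. With a minimum of 1.5-fold, 2 ketone genes were called in LWT, 3 in LKO and 0 between genotypes under vehicle; the last count was also 0 with no filter on dim probes, and 0 to 1 with an array left out (0 without LWT vehicle replicate 1 or LKO vehicle replicate 4).

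Over all genes, the 1.5-fold minimum left 3801 called in LWT, 3885 in LKO and 1627 between genotypes under CL316243, against 8180, 8596 and 3393. Fitting the compared groups alone called 2203 genes between genotypes under CL316243. With no filter, 167 were called under vehicle and 664 for the interaction, against 251 and 1153, and with array weights 635 and 2158. The causes were not tested.

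Small uncalled values changed sign. The Bdh2 interaction was 0.003 in the series table (-0.068 to 0.063 with an array left out). The Oxct1 interaction was 0.073 with normexp, 0.083 in the series table, 0.027 for the mean of probes and 0.019 with array weights (-0.097 to 0.05 with an array left out). The mean of all kept Slc16a7 probes gave 0.094 in LKO and -0.047 between genotypes under vehicle (-0.031 to 0.111 for the brightest probe with an array left out). The Bdh1 effect in LWT ranged from -0.198 to 0.051 with an array left out.

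The rise of the Slc16a7 probe at base 10416 in LWT was 0.69 to 0.85 under 10 alternatives, chosen after seeing the data, and called in all. Its interaction was called with array weights (-0.55, adjusted p = 0.048). Its LKO rise became called under 2 of the 10 alternatives and in 6 of 24 single omissions. The difference between genotypes under CL316243 for this probe was -0.36 (adjusted p = 0.065, not called). That difference became called under 1 alternative and in 3 single omissions. Of 611 values for called genes of the 2 lists, 41 lost the call, as did 85 of 1056 with an array left out.

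Replicate numbers were not used as pairs in the main fit. Deviations of same-numbered mice of different groups correlated by -0.18 to 0.42 (median 0.052), over 0.1 in 9 of 36 pairs. Those of differently numbered mice correlated by -0.465 to 0.37 (median -0.008), over 0.1 in 19 of 180 pairs. Same-numbered mice were thus more alike by these values, and 10 of 24 arrays matched best with their own number. The number of such matches expected without sharing was not computed. What the numbers share was not tested. With the replicate number as a block, 4 ketone genes were called in LWT, 5 in LKO, 2 for the interaction, 1 under vehicle and 4 under CL316243, as without it.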
